A study of Arabidopsis thaliana with 24 samples.

Results

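In well-watered Arabidopsis rosettes, 101 of the 11926 transcripts tested (0.847%) stood at least 1 log2 unit higher at the times labelled late day and midnight than at those labelled midday and pre-dawn. A transcript here is a probe set, the group of short probes on an Affymetrix array that reads 1 target. Members were selected on the well-watered group means: late day and midnight had to lie within 1 log2 of each other, and the lower of them had to exceed the higher of midday and pre-dawn by 1 or more. That excess is called the margin. It ran from 1.01 to 4.36 log2 with a median of 1.38, so the largest was a 20.57-fold step. A limit of 200 members was set and was not reached. The well-watered pattern is therefore a description of how the members were chosen, and it carries no test.

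The plants were wild-type Columbia-0 (Col-0), grown in soil in chambers with a photoperiod of 12 h and harvested as whole rosettes at an age of 32 days. Well-watered rosettes came from plants watered for all 32 days. For the water-limited rosettes, 28 days of watering were followed by 4 days with none. Rosettes of each regime were taken at 12 h (midday), 18 h (late day), 0 h (midnight) and 6 h (pre-dawn), which gives 8 groups of 3 arrays, 24 in all. All values are log2 expression levels. The arrays had medians of 4.66 to 4.86 log2, and an array's mean correlation with the others of its group was 0.9424 to 0.9827, lowest in the water-limited late-day group. The labels do not say how many rosettes went into an array, so the spread between the 3 arrays may hold technical as well as plant-to-plant variation. In whole rosettes, fewer cells of a type and less RNA per cell cannot be told apart.

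The tissue and the times were set against genes of known behaviour. Group means of RCA, which encodes Rubisco activase of leaves, were 13.77 to 14.51 log2. PYK10, a root and seedling beta-glucosidase, was at 5.2 to 7.19 log2 with no call for water limitation (adjusted p = 0.123 in limma). GI (GIGANTEA) is a clock gene known for a peak late in the light period and low levels around dawn. Its levels went against the labelled times: it was at 2.31 to 2.76 log2 on every array labelled midday or late day and at 7.81 to 8.66 on every array labelled midnight or pre-dawn, in both regimes. COR27, a cold- and light-responsive clock repressor, was lowest on the arrays labelled midnight, at 2.22 to 4.08 log2, and highest on those labelled pre-dawn, at 9.3 to 9.62. The labels give no time of lights-on, and the reason for these levels was not tested. The names of the times below are those of the labels, and no phase relative to light is drawn from them.

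**Figure D1:**
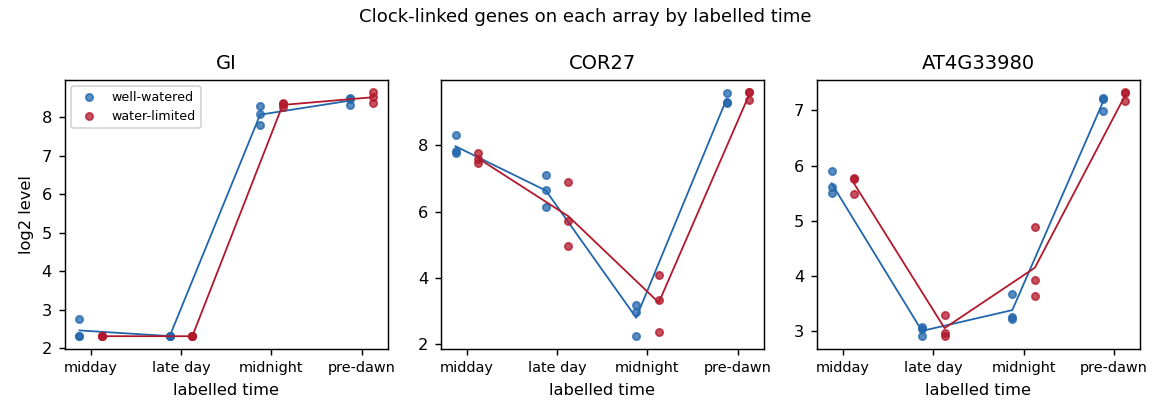
Log2 level (y axis) of GI, COR27 and AT4G33980 on each array at the 4 labelled times (x axis), in well-watered (blue) and water-limited (red) rosettes; points are arrays and lines join group means. GI was at 2.31 to 2.76 at labelled midday and late day and at 7.81 to 8.66 at labelled midnight and pre-dawn.

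Many plant transcripts rise and fall once a day. The circadian clock, a network of transcription factors that repress and activate each other, sets the phase of many of them, while light, sugar and temperature act on the clock and on its targets directly. Genes for light capture, growth hormones and cell-surface proteins are among the best-known outputs in leaves, and water shortage acts on many transcripts that also follow the day.

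Only some members can be called by gene. In the array's annotation 43 of the 101 members (42.6%) carried exactly 1 gene, against 52.8% of the transcripts tested, and the other 58 carried none. Of the 43, 5 had a symbol (IAA29, LHCB4.2, OSM34, petD and CSLA03) and 38 a locus name alone. The 4 members with the largest margins were among those without a gene. Every member passed the filter on low values by its choice among tested transcripts. In the water-limited arrays, 56 members reached 5 log2 on all 12 arrays and 7 on fewer than 3.

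The members' mean level, with its SD over 3 arrays, was 8.14 ± 0.06 log2 at well-watered late day and 8.06 ± 0.04 at midnight, against 6.21 ± 0.09 at midday and 6.06 ± 0.25 at pre-dawn. The water-limited arrays entered the choice only through the filter on low values, at least 5 log2 on at least 3 arrays counted over both regimes. In water-limited rosettes late day had 7.76 ± 0.15 and midnight 7.61 ± 0.05, against 6.25 ± 0.05 for midday and 5.86 ± 0.08 for pre-dawn. Late day and midnight had the higher means in both regimes. The choice of members favours lower water-limited means at those times, so nothing is read from the levels between regimes here.

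**Figure D2:**
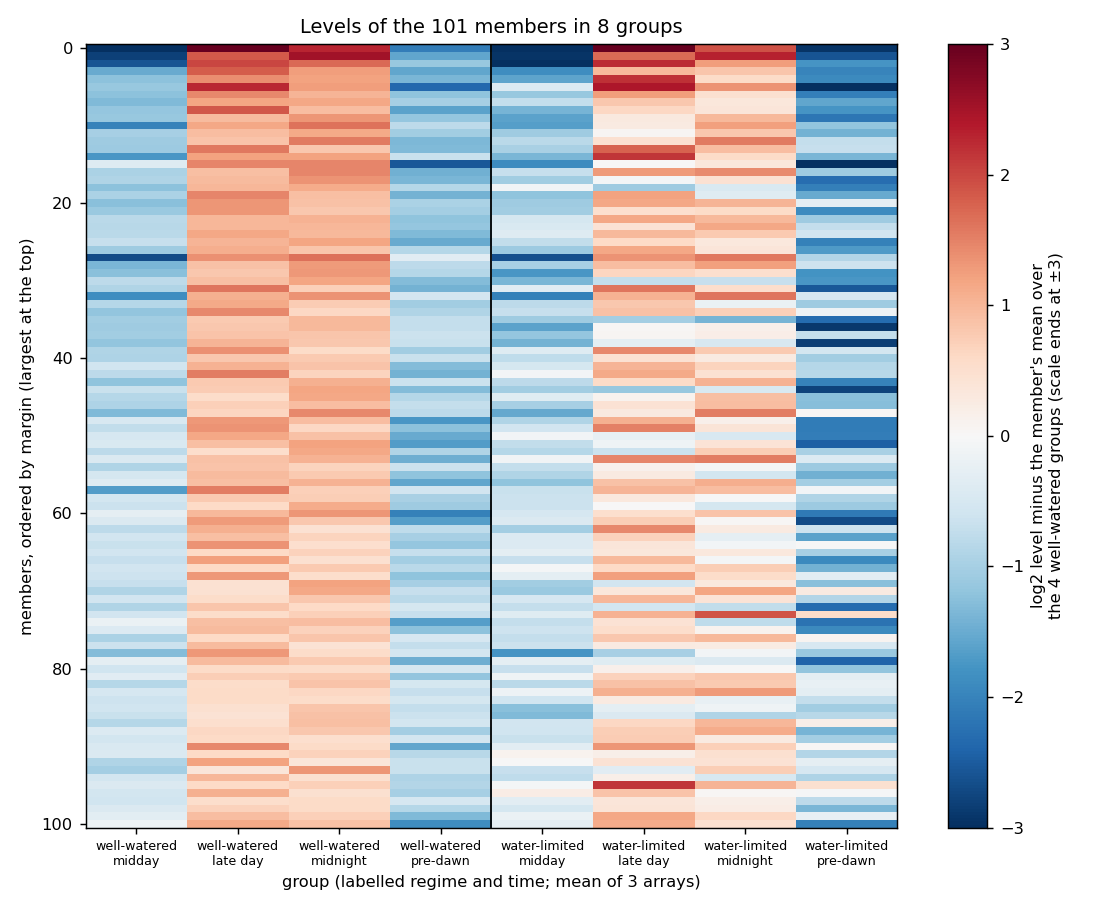
Level of each of the 101 members (rows, largest margin at the top) in the 8 groups (columns, means of 3 arrays), as log2 difference from the member's mean over the 4 well-watered groups. The well-watered columns show the pattern the members were chosen by. In the water-limited columns, 98 members were highest at late day or midnight, a count given without a share of all tested transcripts.

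The water-limited arrays asked whether the same times were high in plants that the rule on well-watered means had not used. The filter on low values did use these arrays. A transcript that passed it through high water-limited late-day or midnight arrays is favoured in this test, and the part of such members was not tested. The measure was the mean of late day and midnight minus the mean of midday and pre-dawn, tested with limma across all transcripts. After Benjamini-Hochberg adjustment, this averaged difference was past the threshold and above 0 in 90 members (89.1%) and below 0 in 0, where it was above 0 in 13.1% of all tested transcripts. The difference was above 0 in all 101 members, and 95 had an unadjusted p below 0.05. Its median was 1.4 log2 and its range 0.3 to 6.22, against a median of -0.02 over all tested transcripts, and 76 members reached 1 log2 or more. For the counts of 101, 95 and 76, no share of all tested transcripts is given. The well-watered differences that chose the members had a median of 1.89 and a range of 1.09 to 5.46.

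Stricter readings of the same arrays kept smaller shares. In 63 members (62.4%), each of the 6 water-limited late-day and midnight arrays lay above each of the 6 midday and pre-dawn arrays, where 2.21% of tested transcripts did so. For 56 members (55.4%), late day and midnight each exceeded midday and pre-dawn in all 4 pairwise tests, against 1.48% of tested transcripts. An F-test of any difference between the 4 water-limited times called 93 members, but it also called 53.6% of all tested transcripts. The members' highest water-limited time was late day in 59, midnight in 39, midday in 3 and pre-dawn in 0. No share of all tested transcripts is given for these highest times.

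The difference was smaller in water-limited than in well-watered rosettes for 75 members and larger for 26, with a median change of -0.35 log2. The choice of members by a high well-watered difference favours that direction, so no test is given. The margin computed from water-limited means was above 0 in 91 members and at least 1 in 40. No share of all tested transcripts is given for these margins.

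**Figure D3:**
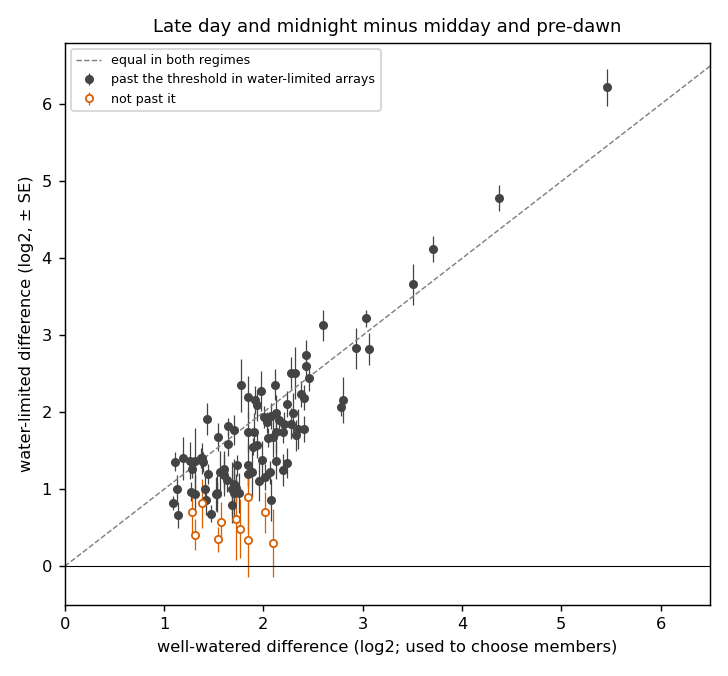
Difference between late day with midnight and midday with pre-dawn (log2) for each member in well-watered arrays (x axis, used to choose the members) and water-limited arrays (y axis, bars ± SE of the fit); the dashed line marks equality. All 101 points lie above 0 on the y axis, 90 of them (filled) past the threshold of an adjusted p of 0.05 and 11 (open) not.

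IAA29 (AT4G32280) held the largest margin of the named members, 2.44 log2. It encodes an Aux/IAA protein, a repressor of auxin responses. Its water-limited levels were 3.08, 3.51 and 3.08 log2 at midday, 6.86, 7.24 and 6.92 at late day, 5.82, 5.59 and 4.73 at midnight, and 2.81, 3.09 and 2.83 at pre-dawn. Its well-watered levels were 3.62, 3.74 and 3.38 at midday, 6.94, 5.77 and 5.89 at late day, 5.57, 6.22 and 6.27 at midnight, and 3.57, 3.38 and 3.38 at pre-dawn. The high and low pairs of times did not overlap in the water-limited arrays, where late day stood apart from midnight too. They did not overlap in the well-watered arrays either, which the choice of members favours. The water-limited difference was 3.13 log2 (SE 0.2), or 8.73-fold, with an adjusted p of 1.86e-10 in limma, the largest of the named members.

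AT1G18810, of the phytochrome kinase substrate family of light-signalling proteins, had water-limited levels of 6.11, 6.14 and 6.18 log2 at midday, 7.86, 7.09 and 8.07 at late day, 7.67, 7.46 and 8.12 at midnight, and 4.66, 5.8 and 5.44 at pre-dawn. In well-watered rosettes it was at 5.38, 6.25 and 6.57, then 8.19, 8.83 and 8.5, then 7.87, 7.95 and 8.13, and at pre-dawn 5.88, 5.73 and 6.86. The late-day and midnight arrays lay above the other arrays in water-limited rosettes, and also in the well-watered ones by which the member was chosen. Its water-limited difference was 1.99 log2 (SE 0.24, adjusted p = 1.91e-06 in limma).

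A light-harvesting gene was among the named members. LHCB4.2 (AT3G08940) encodes CP29, a minor antenna protein of photosystem II. Its water-limited levels were 11.8, 12.28 and 12.12 log2 at midday, 13.68, 13.31 and 13.56 at late day, 13.97, 14.0 and 13.99 at midnight, and 11.6, 12.22 and 11.55 at pre-dawn. The 3 midnight arrays were the highest, and none of the late-day or midnight arrays reached down to the midday or pre-dawn range. The water-limited difference was 1.82 log2 (SE 0.11, adjusted p = 1.5e-10 in limma), and late day minus midnight was -0.47 (adjusted p = 0.0272 in limma). LHCB4.1 and LHCB4.3, close relatives that are not members, had water-limited differences of 0.47 and -0.68 log2 (adjusted p = 0.000855 and 0.000153 in limma). The members' direction was thus not shared by LHCB4.3, and whether probes cross-read between these paralogs was not tested.

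AT5G48540 encodes a secreted cysteine-rich protein. It was at 6.04, 6.25 and 5.65 log2 at water-limited midday, 7.5, 7.82 and 7.13 at late day, 6.89, 6.75 and 7.42 at midnight, and 4.54, 5.75 and 5.09 at pre-dawn. Well-watered levels were 5.0, 5.47 and 5.58 at midday, 7.88, 7.84 and 7.85 at late day, 7.66, 7.91 and 7.94 at midnight, and 5.63, 5.24 and 6.21 at pre-dawn. The pairs of times did not overlap in water-limited arrays, nor in the well-watered arrays, where the choice favours this. In water-limited rosettes late day and midnight exceeded the other times by 1.7 log2 (SE 0.2, adjusted p = 1.32e-06 in limma).

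AT5G66590 belongs to the CAP family of secreted proteins, which holds the pathogenesis-related protein PR-1. Water-limited arrays gave 6.12, 5.3 and 5.13 log2 at midday, 8.87, 9.1 and 9.13 at late day, 7.58, 7.29 and 7.48 at midnight, and 5.22, 5.75 and 5.52 at pre-dawn. Well-watered arrays gave 5.96, 4.62 and 4.79, then 8.5, 7.79 and 7.99, then 7.92, 8.4 and 7.96, and 6.14, 6.12 and 6.34 at pre-dawn. Late day was the highest water-limited time, with no overlap with midnight. The water-limited difference of 2.74 log2 (SE 0.2, 6.67-fold) had an adjusted p of 2.09e-09 in limma.

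AT1G66100 encodes a thionin, a small antimicrobial peptide. It was at 9.84, 9.82 and 10.3 log2 at water-limited midday, 11.67, 11.94 and 11.31 at late day, 11.29, 11.75 and 12.19 at midnight, and 7.87, 10.3 and 7.94 at pre-dawn. The well-watered arrays were at 10.22, 10.4 and 10.99, then 12.17, 12.56 and 12.46, then 12.91, 12.29 and 12.53, and 10.79, 9.99 and 11.9 at pre-dawn. Pre-dawn replicates spread widely in both regimes, and late day and midnight stayed above them, which the choice favours in the well-watered arrays. The fitted water-limited difference was 2.35 log2 (SE 0.34, adjusted p = 2.78e-05 in limma).

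AT3G28220, a TRAF-domain protein, overlapped between the high and low times in the water-limited arrays. In well-watered arrays it was at 6.63, 6.78 and 6.82 log2 at midday, 8.02, 8.67 and 10.24 at late day, 10.74, 8.35 and 8.18 at midnight, and 7.34, 6.08 and 7.96 at pre-dawn. In water-limited arrays it was at 7.53, 8.33 and 7.87 at midday, 6.54, 7.42 and 6.78 at late day, 6.61, 7.74 and 8.25 at midnight, and 5.43, 6.7 and 5.66 at pre-dawn. A single array was far above the others at well-watered late day and another at well-watered midnight, and water-limited midday had the highest mean. The water-limited difference was 0.3 log2 (SE 0.44, adjusted p = 0.637 in limma), and 0.12 without water-limited midnight replicate 3 or 0.54 without midnight replicate 1.

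Regulators of metabolism and transcription came next. AT1G23390 encodes a Kelch-repeat F-box protein that targets chalcone synthase, the entry enzyme of flavonoid synthesis, for degradation. Water-limited levels were 7.82, 8.36 and 8.44 log2 at midday, 9.4, 9.4 and 8.75 at late day, 9.24, 9.63 and 10.24 at midnight, and 6.88, 7.35 and 6.66 at pre-dawn. Well-watered levels were 7.91, 8.3 and 8.79, then 10.07, 10.26 and 10.22, then 10.47, 10.84 and 10.44, and 7.85, 7.41 and 8.36 at pre-dawn. Pre-dawn was its lowest water-limited time without overlap. Its water-limited difference was 1.85 log2 (SE 0.2, adjusted p = 5.53e-07 in limma). Of the flavonoid and anthocyanin list, 5 of 14 genes were tested; the averaged water-limited difference was below 0 and past the threshold in all 5, with a median of -1.81 log2, and none is a member. The highest water-limited mean of each was at pre-dawn, as in DFR with 11.04 log2 against 8.64 at midday, 8.11 at late day and 7.94 at midnight. Averaged over the times, all 5 were higher in water-limited than in well-watered rosettes and past the threshold, with a median of 1.19 log2. Their well-watered differences between times ran from -1.21 to 0.31, and DFR was at 8.06 at well-watered pre-dawn and 8.14 at midday. No share of all tested transcripts below 0 is given here, so nothing is read from the count of 5.

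AT4G37180, a GARP-type transcription factor of the HRS1 homologue family, had lower mean levels in water-limited rosettes at all 4 times. Well-watered arrays gave 3.9, 3.05 and 3.24 log2 at midday, 5.24, 4.12 and 5.83 at late day, 5.9, 5.36 and 4.82 at midnight, and 3.07, 2.29 and 3.25 at pre-dawn. Water-limited arrays gave 2.34, 3.02 and 3.03, then 4.04, 3.05 and 3.25, then 3.57, 3.87 and 3.01, and 2.52, 2.25 and 2.52 at pre-dawn. The water-limited arrays overlapped between midday and midnight. Its difference of 0.86 log2 (SE 0.27) had an adjusted p of 0.0216 in limma, which became 0.0563 without water-limited midday replicate 1, 0.0635 without late day replicate 1 and 0.0546 without midnight replicate 2.

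The other 7 of the 15 named members with the largest margins all passed the test of the water-limited difference. AT4G12980, a DOMON-domain protein, was at 7.07, 7.31 and 6.82 log2 at water-limited midday, 9.14, 9.22 and 8.77 at late day, 9.11, 9.5 and 8.96 at midnight and 6.39, 6.68 and 7.0 at pre-dawn. In well-watered arrays it was at 7.16, 6.53 and 6.77, then 9.0, 8.55 and 8.48, then 9.04, 9.26 and 9.41, and 5.76, 6.56 and 6.69. High and low times were clear of each other in the water-limited arrays, where the difference was 2.24 log2 (SE 0.17, adjusted p = 2.76e-09 in limma). They were also clear in the well-watered arrays that chose the member.

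AT4G05070 was at 7.8, 7.93 and 7.49 log2 at water-limited midday, 8.88, 9.0 and 8.71 at late day, 9.95, 9.5 and 9.37 at midnight and 7.11, 7.55 and 7.48 at pre-dawn. Its well-watered arrays were at 7.85, 7.69 and 7.9, then 9.94, 9.59 and 9.65, then 9.7, 10.06 and 10.04, and 7.81, 7.63 and 7.82. The 3 water-limited late-day arrays lay below all well-watered late-day arrays, a direction that the choice of members favours, so nothing is read from it. Late day and midnight exceeded the other water-limited times by 1.67 log2 (SE 0.12, adjusted p = 1.36e-09 in limma).

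AT5G35970 was highest at midnight: 10.45, 10.75 and 10.85 log2 in water-limited arrays, against 9.83, 9.36 and 9.64 at late day, 8.07, 8.32 and 8.56 at midday and 8.68, 7.87 and 8.71 at pre-dawn. In well-watered arrays it was at 10.87, 10.35 and 10.83 at midnight, 9.76, 10.28 and 9.9 at late day, 8.08, 8.13 and 8.0 at midday and 7.28, 7.81 and 8.22 at pre-dawn. Midnight lay above late day on every array of both regimes. The water-limited difference was 1.78 log2 (SE 0.17, adjusted p = 1.04e-07 in limma).

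AT3G01060 gave nearly equal late-day and midnight levels, at 8.97, 8.57 and 9.01 and at 8.63, 8.74 and 8.64 log2 in water-limited arrays, above 7.32, 6.98 and 7.17 at midday and 6.71, 6.39 and 6.75 at pre-dawn. Well-watered arrays were at 8.55, 8.86 and 8.67 and at 8.79, 8.73 and 8.66, above 7.16, 6.85 and 6.61 and 6.23, 6.16 and 7.04. The regimes overlapped at each time. Under water limitation the difference was 1.87 log2 (SE 0.14, adjusted p = 2.14e-09 in limma).

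AT5G12050 was at 6.28, 6.38 and 6.25 log2 at water-limited midday, 8.91, 8.6 and 8.15 at late day, 7.76, 7.82 and 7.67 at midnight and 5.45, 6.28 and 5.34 at pre-dawn. Its well-watered arrays were at 6.47, 6.22 and 6.3, then 8.99, 8.4 and 8.01, then 7.81, 8.57 and 8.31, and 6.28, 6.49 and 6.79. Water-limited late day stood above midnight on every array. Its difference between times in water-limited rosettes was 2.16 log2 (SE 0.18, adjusted p = 1.54e-08 in limma).

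AT5G57345 was at 8.8, 8.57 and 8.5 log2 at water-limited midday, 10.26, 10.06 and 10.25 at late day, 9.61, 10.17 and 9.73 at midnight and 8.45, 8.07 and 8.41 at pre-dawn. Its well-watered arrays were at 8.79, 8.39 and 8.53, then 10.26, 10.21 and 10.12, then 10.09, 9.96 and 10.03, and 7.74, 7.83 and 7.99. Replicates lay close together, and the water-limited difference was 1.55 log2 (SE 0.11, adjusted p = 9.59e-10 in limma). The gene overlaps its neighbour AT5G57340 in the TAIR10.1 annotation, so its signal is uncertain as that of 1 gene.

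AT2G38640, of the LURP-one-like family, was at 5.36, 5.03 and 4.63 log2 at water-limited midday, 5.93, 6.23 and 5.53 at late day, 7.32, 6.68 and 5.84 at midnight and 4.97, 4.34 and 4.92 at pre-dawn. Its well-watered arrays were at 4.92, 4.36 and 4.62, then 6.46, 6.48 and 6.46, then 5.59, 6.55 and 7.23, and 4.79, 4.18 and 3.94. Water-limited midday and late day came close without overlapping. The averaged water-limited difference was 1.38 log2 (SE 0.25, adjusted p = 0.000367 in limma). Late day alone minus midday was 0.89 log2 under water limitation and did not pass (adjusted p = 0.0805 in limma).

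**Figure D4:**
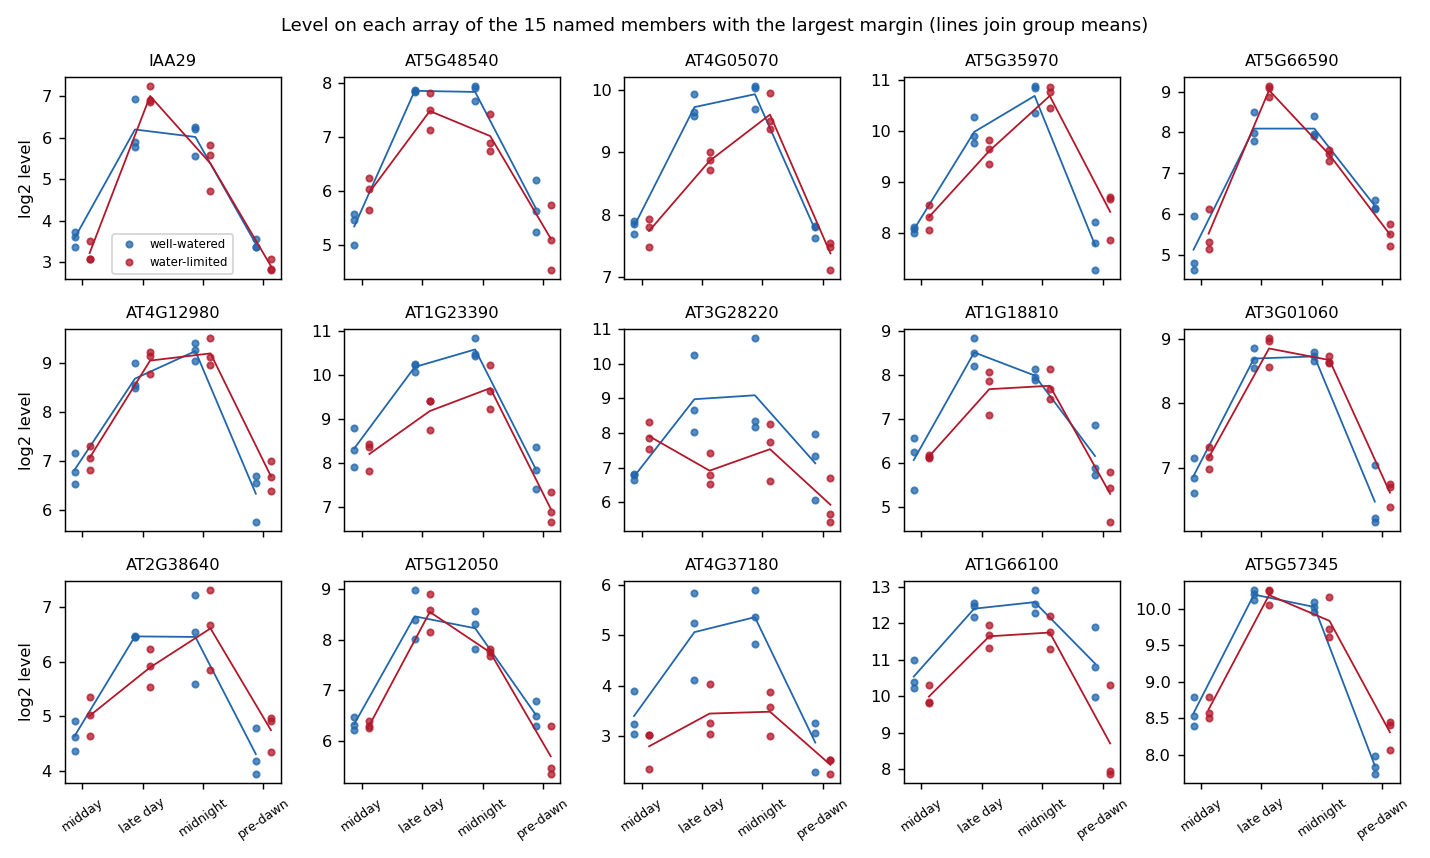
Log2 level (y axis, own scale in each panel) on each array of the 15 named members with the largest margin at the 4 labelled times (x axis), in well-watered (blue) and water-limited (red) rosettes; lines join group means. AT3G28220 and AT4G37180 are the panels in which water-limited late day and midnight overlap the other times.

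Among the 43 named members, 36 were past the threshold for the water-limited difference, 23 passed all 4 pairwise tests and 26 had no overlap between the high and low pairs of times. Over all tested transcripts, named or not, the shares were 13.1%, 1.48% and 2.21% in that order. Besides the genes above, the largest differences were those of AT5G62280, at 1.99 log2 (adjusted p = 5.7e-06 in limma), and AT1G19450, an ERD6-like sugar transporter, at 1.95 (adjusted p = 2.38e-08 in limma). AT1G19450 overlapped between times: its midnight mean was 0.47 log2 above its midday mean. AT4G21870, a small heat-shock-type chaperone, differed by 1.25 log2 (adjusted p = 0.000131 in limma).

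The 7 named members not past the threshold, with differences from 0.3 to 0.9 log2, were AT3G28220, the osmotin OSM34, the GDSL lipase AT3G48460, the glutaredoxin AT3G62950, the aspartyl protease AT3G59080, the trihelix transcription factor AT1G76880 and the plastid gene petD, which encodes subunit IV of the cytochrome b6f complex. OSM34 had 0.34 log2 (SE 0.48, adjusted p = 0.63 in limma), or 0.08 without water-limited late day replicate 2 and 0.66 without midnight replicate 1. For petD it was 0.9 (SE 0.47, adjusted p = 0.155 in limma), or 0.57 without water-limited late day replicate 1. Other genes of the 7 passed when single arrays were left out: AT3G62950 without water-limited midnight replicate 1 or late day replicate 3 (adjusted p = 0.00676 and 0.0277 in limma) or well-watered midday replicate 2 or 3 (0.0305 and 0.0461), and AT3G48460 without water-limited late day replicate 3 (0.0459) or, in the well-watered arrays, midday replicate 3 (0.0329). So did AT3G59080 without well-watered midday replicate 3 or water-limited midnight replicate 2 (0.0449 and 0.0193), and AT1G76880 without water-limited late day replicate 2 or midnight replicate 3 (0.0117 and 0.00567). The SEs of AT3G28220, OSM34 and petD were the 3 widest of the named members. AT1G78560, of the bile acid:sodium symporter family, and AT1G18060 had small differences that did pass, 0.67 and 0.82 log2 (adjusted p = 0.00638 and 4.77e-07 in limma).

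Late day and midnight were not equal in every member of the water-limited arrays. Late day exceeded midnight in 23 members, against a background of 18.5% of tested transcripts, and midnight exceeded late day in 8, against 16.3%. The median was 0.17 log2. Counts of late day over midnight fell to 15 without water-limited late day replicate 1 or 2, and those of midnight over late day to 5 without midnight replicate 2. Late day over midnight was thus about as common as among all tested transcripts, and no trait of the members is read from it. Late day was higher by 1.62 log2 in IAA29 (adjusted p = 0.000118 in limma) and by 1.58 in AT5G66590 (adjusted p = 0.000209 in limma). It was also higher by 1.21 in the secreted cysteine-rich protein AT3G22060 (adjusted p = 0.0254 in limma) and by 1.17 in AT5G03230 (adjusted p = 0.00122 in limma), while the 1.13 of AT5G39520 did not pass (adjusted p = 0.151 in limma).

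The opposite order, with midnight above late day, was largest in AT1G62510, of the lipid-transfer protein family, at -1.39 log2 for late day minus midnight (adjusted p = 0.0221 in limma). It was -1.24 in the HAD-type hydrolase AT2G32150 (adjusted p = 0.0133 in limma) and -1.07 in AT5G35970 (adjusted p = 0.00161 in limma). AT4G05070 had -0.74 (adjusted p = 0.00183 in limma), and the -0.91 of petD did not pass (adjusted p = 0.303 in limma).

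The low times differed as well. Midday exceeded pre-dawn in 29 water-limited members, where 10.2% of tested transcripts did so, and pre-dawn exceeded midday in 8, where 9.07% did. The median was 0.32 log2. Of the named members, 10 were higher at midday, among them AT1G19450 and AT3G62950 by 2.26 and 1.98 log2, and 2 were higher at pre-dawn, AT2G32150 and AT4G13010, with -1.57 and -0.8 log2 for midday minus pre-dawn.

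Water limitation itself was compared at each time and as the average of the 4 water-limited minus well-watered differences. The average weights all well-watered groups equally, whereas the choice of members used differences between them, but both rest on the same well-watered arrays. Of the 101 members, 94 reached the filter of 5 log2 on 3 arrays within the water-limited arrays. The other 7 passed it only with well-watered arrays, in which the choice made them high, so that a fall under water limitation is favoured in them. On this average 29 members (28.7%) fell, where 4.54% of tested transcripts did, and 4 (4.0%) rose, where 5.56% did. The other 68 did not pass. The part of the members' choice in these counts was not tested. The 4 rises became 7 without water-limited pre-dawn replicate 2, 2 without well-watered midday replicate 3 or midnight replicate 1 or 2, and 1 without water-limited midday replicate 1 or pre-dawn replicate 1 or 3, whereas falls stayed between 24 and 34. The median was -0.27 log2 over the members and 0.01 over all tested transcripts, and 69 members were below 0. Called falls were -1.44 to -0.32 log2 with a median of -0.65, and 27 of the 29 were lower at all 4 times. Among the 94 members alone, 27 fell, by values of -1.36 to -0.32 log2, and 4 rose. Of these 29, 26 were also past the threshold for the water-limited difference between times.

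The GAPDH, actin and ubiquitin controls carry 3' and 5' probe sets, whose log2 difference moves with RNA quality. For GAPDH it was 1.58 to 1.64 on water-limited and 1.31 to 1.48 on well-watered pre-dawn arrays, and 1.5 to 1.75 against 1.26 to 1.46 at late day. At midnight the GAPDH ranges overlapped, at 1.49 to 1.6 and 1.39 to 1.64, and at midday they were 1.17 to 1.43 against 1.41 to 1.57. The controls did not move alike. At late day actin had 4.02 to 4.25 on water-limited and 3.8 to 3.93 on well-watered arrays, and ubiquitin overlapped at 1.05 to 1.27 and 1.15 to 1.24. At pre-dawn actin overlapped, at 4.4 to 4.72 and 4.34 to 4.44, and so did ubiquitin, at 1.06 to 1.14 and 1.11 to 1.23. At midnight actin had 4.08 to 5.19 on water-limited arrays, its widest range in any group, against 4.39 to 4.62 on well-watered arrays. At midday it had 4.23 to 4.4 against 3.9 to 4.26. Ubiquitin overlapped at midnight, at 1.23 to 1.46 and 1.23 to 1.31, and at midday, at 1.26 to 1.34 and 1.14 to 1.32. The part of these control values in the members' falls and in the water-limited difference between times was not tested.

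The 9 named members that fell had varied roles. AT4G37180, the GARP-type factor, fell by 1.13 log2 (SE 0.19, adjusted p = 0.00108 in limma). It reached 5 log2 on 0 of 12 water-limited arrays and so was tested only for its well-watered late-day and midnight levels. The thionin AT1G66100 fell by 1.08 (SE 0.24, adjusted p = 0.0081 in limma). AT3G22060, a secreted cysteine-rich protein, fell by 0.82 (SE 0.2, adjusted p = 0.0147 in limma). In these 3 genes, water-limited means were lower at each of the 4 times.

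The F-box gene AT1G23390 fell by 0.73 log2 (SE 0.14, adjusted p = 0.00323 in limma). The sugar transporter AT1G19450 fell by 0.59 (SE 0.12, adjusted p = 0.00428 in limma), and AT4G05070 fell by 0.41 (SE 0.09, adjusted p = 0.00498 in limma). The midday differences of these genes were close to 0, at -0.12, -0.01 and -0.07 log2. The glutaredoxin AT3G62950 fell by 0.72 (SE 0.19, adjusted p = 0.0205 in limma) although its midday difference was 0.42. AT1G77060, of the isocitrate lyase superfamily, fell by 0.67 (SE 0.17, adjusted p = 0.0156 in limma), and CSLA03, of the mannan synthase family, fell by 0.43 (SE 0.12, adjusted p = 0.0292 in limma).

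AT4G13010, a quinone oxidoreductase-type protein of the chloroplast envelope, was the 1 named member that rose, by 0.29 log2 (SE 0.09, adjusted p = 0.0411 in limma). Its adjusted p rose above 0.05 for each of 15 arrays when that array alone was left out, and that of CSLA03 for each of 8.

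**Figure D5:**
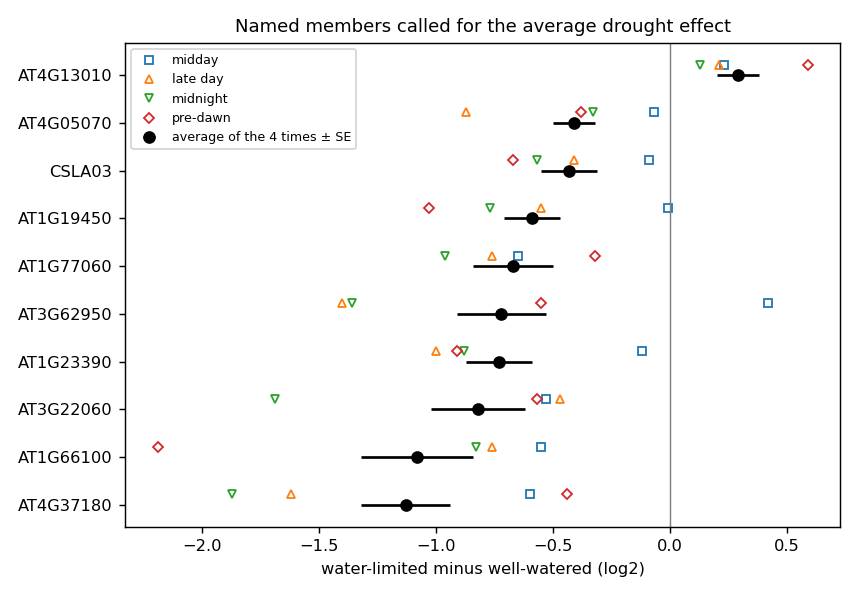
Water-limited minus well-watered level (x axis, log2) of the 10 named members called for the average drought effect (y axis), at each of the 4 times (open symbols) and on average (filled, bars ± SE). Falls average between -1.13 and -0.41, and AT4G13010 averages 0.29.

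At single times the choice of members favours a water-limited level that is lower at late day and midnight and higher at midday and pre-dawn, so the counts are given beside their backgrounds and nothing is read from them. At midday 0 members passed, where 0.0% of tested transcripts did. At late day 5 fell, where 0.21% changed either way, and at midnight 5 fell, where 0.386% changed. At pre-dawn 21 changed, 9 up and 12 down, where 7.24% changed. The members' median differences were 0.05, -0.31, -0.4 and -0.29 log2 in that order.

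Applying the same rule to the water-limited means in place of the well-watered means chose 55 transcripts, 35 of them members, which is 34.7% of the 101 and 63.6% of the 55. Of all tested transcripts, 0.847% were members. The shared named members were AT4G12980, AT1G66100, AT1G18810, AT3G01060, AT5G12050, LHCB4.2, AT5G57345, AT4G05070, AT5G48540 and AT5G62280. For the 55, the average drought effect fell in 14 and rose in 3, with a median of -0.11 log2. For the 35 shared, it fell in 10 and rose in 1, with a median of -0.28. Among all tested transcripts 4.54% fell and 5.56% rose. The water-limited arrays that chose the 55 also enter this average, so nothing is read from these counts.

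At the edge of the margin the named members just inside were AT1G18060 at 1.013, AT2G36630, of the TauE/SafE family of anion exporters, at 1.01 and AT5G59080 at 1.01 log2. Just outside were AT1G26800 at 0.994, ZCF37 at 0.989 and AT5G44530 at 0.983. In all 6, water-limited group means were higher at late day and midnight than at midday and pre-dawn, as in AT1G26800 at 5.37, 6.72, 7.11 and 5.17 log2 from midday to pre-dawn and AT5G59080 at 7.84, 9.23, 8.59 and 6.09. The gaps were uneven: AT5G44530 was at 6.46 at midnight and 6.44 at midday, nearly equal, and ZCF37 at 4.9 and 4.48.

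Across the 12 water-limited arrays the members' correlation with the members' mean ran from 0.24 to 0.99 with a median of 0.86, and 68 members were above 0.8. The arrays of a group share plants of 1 regime and time, so these values describe the pattern of times. No share of all tested transcripts above 0.8 is given, so the count of 68 has no background. The named non-members most like that mean were AT2G34460 (Pearson's r 0.953), AT5G19940 (0.946), AT3G55960 (0.938), AT1G66900 (0.937) and AT5G57340 (0.935). Their well-watered margins were 0.64 to 0.98 log2, below the required 1. AT5G57340 overlaps the member AT5G57345, so its signal is uncertain as that of a separate gene.

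The gene lists used for context met the members once. Of 203 listed genes, 30 were named on the array, 29 were tested, and 1, LHCB4.2, was a member. Of the clock list 4 genes were tested, and the averaged water-limited difference was past the threshold above 0 in 0 and below 0 in 2. Of the starch breakdown list 2 were tested and both differences were below 0 and past the threshold, although DPE1 was at 8.61 log2 at water-limited midnight and 7.74 at midday. For these lists too, no share of all tested transcripts below 0 is given, and nothing is read from the counts.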

How the data were processed

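The table the authors deposited holds log2 expression values for 22810 probe sets on 24 arrays, and GCRMA produced them, per the submitters' processing notes; its version and further steps are not given in the sources used here. Its lowest value was 2.1961 log2, and 25.5% of values lay within 0.001 of it. RNA was extracted with Trizol, per the labels' protocols. No depth applies to arrays; 3 per group limit the precision.

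After 64 control probe sets were set aside, 11926 probe sets with at least 5 log2 on at least 3 arrays entered a linear model in limma (version 3.58.1, R 4.3.3): 1 mean per group, a shared moderated spread (16 residual and 4.57 prior degrees of freedom), two-sided tests, and Benjamini-Hochberg adjustment over all tested probe sets in each contrast, with 0.05 as the threshold. The script was tested on simulated data. Genes came from the platform annotation and TAIR10.1. Named genes have exactly 1 gene: the 15 with the largest margin, the extremes of each contrast, those at the edge of the margin and others of known role. Members and lists were chosen with earlier results of these data known. No 2 arrays were identical. Alternatives varied the filter, moderation, scaling, block, arrays and probe sets. Promoter and protein sequences were not analysed here.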

Additional observations from a re-analysis of the deposited data

How the results depend on the processing

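None of the results reversed under any alternative run. The count of 90 members higher at water-limited late day and midnight ran from 87 to 93 when single arrays were left out, the F-test count from 89 to 94, the count passing all 4 pairwise tests from 51 to 58, late day over midnight from 15 to 26, midnight over late day from 5 to 10, midday over pre-dawn from 23 to 34 and pre-dawn over midday from 6 to 10. The median water-limited difference ran from 1.377 to 1.572, with the highest value without water-limited midday replicate 1 and 1.525 without late day replicate 3. For the average drought effect, falls ran from 24 to 34, rises from 1 to 7 and the median from -0.2903 to -0.2018 log2; rises were 7 without water-limited pre-dawn replicate 2, 2 without well-watered midday replicate 3 or midnight replicate 1 or 2, and 1 without water-limited midday replicate 1 or pre-dawn replicate 1 or 3. Without a filter on low values 1 member rose. With a mean of at least 6 log2, which keeps 68 members, 19 fell and the median water-limited difference was 1.691. Another alternative fitted and adjusted only the 6293 tested probe sets with exactly 1 gene, 43 of them members. Among these members 36 were higher, 38 passed the F-test and 22 passed all pairwise tests. The counts were 9 and 5 for late day against midnight, 10 and 2 for midday against pre-dawn, and 9 falls and 1 rise. The rule on water-limited means, added after seeing the data, chose 55; after quantile normalization the rule chose 94, 93 of them members.

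Equal replicate numbers did not pair the arrays: over 12 equal-number pairs the correlation of deviations was -0.538 to 0.093, none above 0.1. With the replicate block, 18 members fell and 1 rose; among named members AT1G66100, AT3G62950, AT3G22060, AT1G77060, CSLA03 and AT4G13010 were then above the threshold (adjusted p = 0.0501, 0.0642, 0.0784, 0.0518, 0.075 and 0.144 in limma). For single named genes, 1606 of 1669 recomputed values kept their call, 51 lost it and 12 gained it; AT3G62950, AT3G22060, AT1G77060 and CSLA03 lost their fall without the filter (adjusted p = 0.0638, 0.0522, 0.0519 and 0.0701 in limma), AT4G13010 its rise (0.0701), and AT4G37180, AT1G62510 and AT5G39520 their time difference (0.0652, 0.0892 and 0.0629). The gains were of AT3G62950, also after quantile normalization (0.044), AT3G48460, also with water-limited arrays alone (0.0277), AT3G59080 and AT1G76880. The cause was not tested. The planned search of promoters was not run.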
